A study of Mus musculus with 12 samples.

Results

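The Cyp4a genes encode cytochrome P450 enzymes of the endoplasmic reticulum that hydroxylate fatty acids at the terminal (omega) carbon. Their H3K9ac peaks were examined in mouse liver for 6 genes, Cyp4a10, Cyp4a12a, Cyp4a12b, Cyp4a14, Cyp4a31 and Cyp4a32, of 21911 protein-coding genes in the GENCODE M21 annotation of GRCm38 (mm10). H3K9ac is acetylation of histone H3 at lysine 9, a mark found at active promoters and enhancers. The genes were picked from these same peak lists because Cyp4a14 had a peak in B6 and none in MSM, so its strain contrast is a description and was not tested. A peak belonged to a gene when it overlapped the gene body or the 5 kb on either side of the gene start by at least 1 bp. The 6 windows spanned 152511 bp and held 25 peaks, of 102889 in the 6 lists.

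The peaks came from H3K9ac chromatin immunoprecipitation and sequencing of formaldehyde-fixed adult liver. The parental strains were C57BL/6J (B6), whose genome is the mouse reference, and MSM/Ms (MSM), an inbred line founded from wild mice of Japan, with 2 libraries each. The reciprocal hybrids had 1 library per cross: F1 BM had its maternal genome from B6 and its paternal genome from MSM, and F1 MB had the opposite parents. The labels named no drug, diet, transgene or sex. The B6 and MSM replicates were separate mice, and the 6 input samples of the 12 in the series were not analysed here.

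Liver Cyp4a genes are classic targets of PPARα, a nuclear receptor that binds DNA with its partner RXR and is activated by fatty acids and fibrate drugs. Several of them are also sex-dependent in mouse liver. Cyp4a12a and Cyp4a12b, the main producers of the vasoactive lipid 20-HETE in male mice, are male-biased, and Cyp4a10 and Cyp4a14 are higher in females. The genes arose by duplication, and near-identical copies can share sequencing reads.

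The libraries differed in how many peaks were listed. They ranged from 11619 peaks over 6.28 Mb (B6 replicate 2) to 22968 peaks (B6 replicate 1), with 17310 and 17584 for the MSM replicates, 20173 for F1 BM and 13235 for F1 MB. The median fold enrichment, the height of a peak over the background used by the peak caller, lay between 3.38 in F1 BM and 5.23 in B6 replicate 1. The values were not corrected for sequencing depth, since the lists give no read counts, and an unlisted peak may have been too weak for its library. In whole liver, fewer cells carrying the mark and less of the mark per cell cannot be told apart. The starts of 8 or 9 of 10 hepatocyte genes had a peak in each library, Alb among them, whereas Hnf4a had none at the single start used for it. Of 7 Kupffer cell genes, 5 bile duct genes and 6 leukocyte genes, at most 1 of each had a peak in any library, and Clec4f, Adgre1, Krt19, Krt7 and Cd3e had none in all 6. Of 6 endothelial genes, 5 had a peak in MSM replicate 2 and F1 BM, 4 in B6 replicate 1, 2 in MSM replicate 1 and 0 in the remaining libraries, and of 6 stellate cell genes 2 had a peak in F1 BM and 0 elsewhere. The part of cell composition in the Cyp4a values was not tested. Xist, which is transcribed from the inactive X chromosome of females, had a peak at its start in 6 of 6 libraries, and the Y-linked genes Ddx3y, Kdm5d, Uty and Eif2s3y had a peak in 0 of 6. The whole Y chromosome nevertheless held 8 and 4 peaks in MSM replicates 1 and 2, 9 for F1 BM and 1 for F1 MB, against 0 in both B6 libraries.

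The 6 genes lay in a cluster on chromosome 4, between chr4:115299046 and chr4:115621602, a span of 322557 bp. Along the chromosome the order was Cyp4a12a (ENSMUSG00000066071.6, chr4:115299046-115332815, plus strand), Cyp4a12b (ENSMUSG00000078597.2, chr4:115411624-115439034, plus strand), Cyp4a14 (ENSMUSG00000028715.2, chr4:115486200-115496142, minus strand), Cyp4a10 (ENSMUSG00000066072.13, chr4:115518264-115533649, plus strand), Cyp4a31 (ENSMUSG00000028712.12, chr4:115563649-115579015, plus strand) and Cyp4a32 (ENSMUSG00000063929.6, chr4:115600969-115621602, plus strand). Cyp4a14 was the only one of the 6 on the minus strand.

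The coding sequences fell into 3 groups. Cyp4a12a and Cyp4a12b were 98.6% identical over their 1524 coding bases, and their first coding exons were the same in 189 of 189 bases. Cyp4a10, Cyp4a31 and Cyp4a32 had 1527 coding bases each, and their identity was 97.2% for Cyp4a10 with Cyp4a32, 96.6% for Cyp4a10 with Cyp4a31 and 96.0% for Cyp4a31 with Cyp4a32. Cyp4a14, with 1521 coding bases, stood apart at 76.8 to 77.5% identity to the other 5. The first coding exons of the Cyp4a10 group are shown because Cyp4a10 and Cyp4a32 each had a peak over this exon in all 6 libraries. Some further peaks of these genes lay outside it. Cyp4a31, although so alike, had no peak in any library. They are read from GRCm38 on the plus strand (chr4:115518322-115518510, chr4:115563717-115563905 and chr4:115600975-115601163), and capitals mark the 11 of 189 positions at which the 3 genes differ.
Cyp4a10: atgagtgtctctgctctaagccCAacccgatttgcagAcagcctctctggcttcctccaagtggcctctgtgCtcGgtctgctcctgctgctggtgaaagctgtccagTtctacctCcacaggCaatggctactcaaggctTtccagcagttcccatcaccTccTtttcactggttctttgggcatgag
Cyp4a31: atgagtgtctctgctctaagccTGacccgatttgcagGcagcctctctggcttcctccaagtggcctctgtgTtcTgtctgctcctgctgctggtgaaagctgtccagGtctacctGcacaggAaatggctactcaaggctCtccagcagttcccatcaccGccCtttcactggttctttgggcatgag
Cyp4a32: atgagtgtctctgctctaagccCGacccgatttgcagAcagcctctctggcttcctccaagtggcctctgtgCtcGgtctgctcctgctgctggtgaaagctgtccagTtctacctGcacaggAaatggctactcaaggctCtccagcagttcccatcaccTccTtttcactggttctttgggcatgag

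The start of Cyp4a14 is shown because the region present in B6 and not in MSM lay over it. The 300 bases run from the start codon along the gene, on the minus strand of GRCm38 (chr4:115495814-115496113). Capitals mark the 195 coding bases of exon 1, and lower case marks the first intron. The summits of B6 replicate 1 (chr4:115495941) and F1 BM (chr4:115495928) fell in the capitals, and the summit of B6 replicate 2 (chr4:115495891) in the lower case.
Cyp4a14: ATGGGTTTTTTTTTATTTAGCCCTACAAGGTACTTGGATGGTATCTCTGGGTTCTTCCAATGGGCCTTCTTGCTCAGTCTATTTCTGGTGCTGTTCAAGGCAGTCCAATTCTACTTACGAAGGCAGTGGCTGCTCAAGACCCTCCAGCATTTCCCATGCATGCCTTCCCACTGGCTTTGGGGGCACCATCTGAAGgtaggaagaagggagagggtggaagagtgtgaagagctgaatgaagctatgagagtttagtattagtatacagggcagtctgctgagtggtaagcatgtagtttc

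Of the 6 genes, 2 had a peak in all 6 libraries (Cyp4a10 and Cyp4a32), against 28.5% of all protein-coding genes, and 2 had a peak in none (Cyp4a12b and Cyp4a31), against 47.2%. When the lists were shortened to equal covered length, Cyp4a10 lost its peak in MSM replicate 1 and Cyp4a32 its peaks in B6 replicate 1, MSM replicate 2 and both hybrids, so no gene then had a peak in all 6. In the full lists Cyp4a14 had a peak in both B6 and both F1 libraries, and Cyp4a12a in MSM replicate 1 alone. The windows held 5 peaks in B6 replicate 1, 3 in B6 replicate 2, 3 in each MSM library, and 7 (F1 BM) or 4 (F1 MB) in the hybrids. The B6 mean was 4 ± 1.41 peaks (SD, n = 2) and every MSM library had 3. These counts include the Cyp4a14 peaks by which the genes were chosen. Without Cyp4a14 the other 5 genes had 3 and 2 peaks in B6 and 3 and 3 in MSM, so B6 minus MSM went from 1 peak to -0.5, equal in size to the pooled SD of 0.5. The length under peaks was 4586 and 2318 bp in B6, 1890 and 1670 bp in MSM, 5555 bp in F1 BM and 1148 bp in F1 MB. Both B6 libraries were above both MSM libraries, and F1 BM and F1 MB lay beyond the parental values on either side. B6 averaged 3452 ± 1604 bp and MSM averaged 1780 ± 156 bp (SD, n = 2 for either strain). The difference of 1672 bp includes Cyp4a14 and is a description. It was 538 bp without B6 replicate 1, 2806 bp without B6 replicate 2 and 817 bp within 1 kb of the starts. Without Cyp4a14 its direction turned: the other 5 genes had 2019 and 1162 bp in B6 and 1890 and 1670 bp in MSM, and B6 minus MSM was -189.5 bp, smaller in size than the pooled SD of 442 bp.

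The peaks sat at the 5′ ends of the genes. Of the 25 peaks, 17 began downstream of the gene start, 3 crossed it and 5 ended upstream of it. The summit lay in a coding exon for 9 peaks, in an intron for 11 and upstream of the gene for 5. The farthest edges from a start were 1745 bp downstream and 2062 bp upstream, both at Cyp4a14, so the remaining gene bodies held no peak. The nearest peak outside the 6 windows was 25735 bp away, in B6 replicate 1 at the start of Cyp4b1, a relative expressed mainly in lung, with a fold of 5.76.

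**Figure D1:**
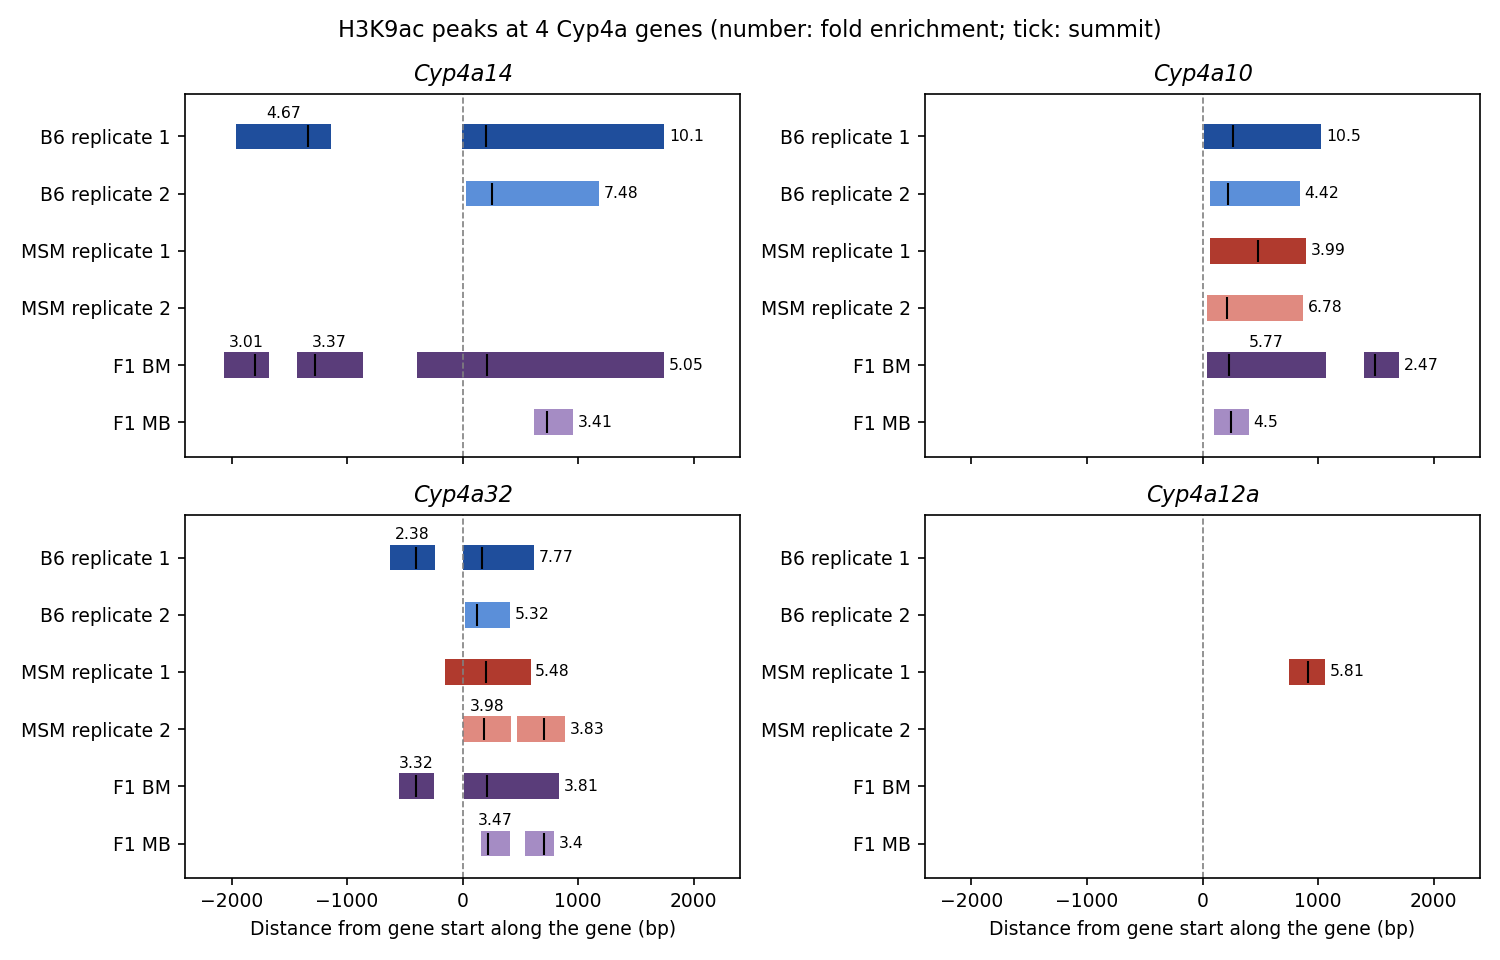
Peaks of each library (rows) at Cyp4a14, Cyp4a10, Cyp4a32 and Cyp4a12a by distance in bp from the gene start along the gene, with the dashed line at the start, a tick at each summit and the fold enrichment as a number. At Cyp4a14 both MSM rows are empty. At Cyp4a10 and Cyp4a32 every row has a peak just downstream of the start or, for MSM replicate 1 at Cyp4a32, across it.

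Cyp4a14, an omega-hydroxylase that is strongly induced by fasting and by PPARα agonists, carried the strain-specific region. In B6 replicate 1 its start had a peak at chr4:115494397-115496144, 1748 bp wide, with a fold of 10.1 and a −log10 q of 54.5. In B6 replicate 2 the peak was at chr4:115494960-115496115, 1156 bp wide, with a fold of 7.48 and a −log10 q of 22.9. Neither MSM library had a peak anywhere in the 14943-bp window. Within their own lists, 88.9% and 91.5% of peaks had a lower fold than the Cyp4a14 start peak in B6 replicates 1 and 2, so it was among the higher peaks in both. By the lower of the 2 B6 folds it ranked 16 of 849 B6-specific regions, those with a peak in both B6 libraries and in neither MSM library. B6-specific regions made up 3.29% of 25803 regions formed by merging the peaks of the 4 parental libraries, and MSM-specific regions 3.38%. Cyp4a14 was 1 of 6 Cyp4a genes with a B6-specific region, against 3.21% of all protein-coding genes. Within 1 kb of the start, 1.69% of genes had one. An MSM-specific region was found in 0 of 6 Cyp4a genes, against 2.29% of genes in the window and 0.516% within 1 kb of the start. Without B6 replicate 2 the count of genes with a B6-specific region was 2, as the upstream peak of Cyp4a32 in B6 replicate 1 was added, while the share of all genes rose to 22.0%. Without MSM replicate 2 the MSM-specific count was 1, that of Cyp4a12a, and the share of all genes was 5.46%.

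Both hybrids had a peak that overlapped the Cyp4a14 region, as had 25.4% of the B6-specific regions. The peak of F1 BM (chr4:115494397-115496536, 2140 bp) had a fold of 5.05 and a −log10 q of 27.9, and 84.7% of the peaks of that list were lower. The peak of F1 MB (chr4:115495185-115495525) was 341 bp wide with a fold of 3.41 and a −log10 q of 4.19, and 14.9% of the peaks of its list were lower. The percentages are not comparable between these lists, which held 20173 peaks with a median fold of 3.38 in F1 BM and 13235 with a median of 4.57 in F1 MB. The F1 BM peak covered the start, and the F1 MB peak lay 617 to 957 bp inside the gene, with its summit in an intron and a fold below the median of its list. The F1 MB peak was absent when peaks were limited to a −log10 q of at least 5. It was also absent from lists of equal covered length, in which F1 BM kept 1 Cyp4a14 peak. With 1 mouse per cross, this difference has no replicate error, and the lists do not tell which parental allele carried the acetylation.

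A separate domain upstream of Cyp4a14 was listed in B6 replicate 1 and in F1 BM. In B6 replicate 1 it was 819 bp wide at chr4:115497283-115498101, with its far edge 1959 bp before the start and a fold of 4.67. In F1 BM it was listed as 2 peaks, at chr4:115497009-115497576 with a fold of 3.37 and at chr4:115497818-115498204 with a fold of 3.01. B6 replicate 2, both MSM libraries and F1 MB had none there, so the B6 replicates differed from each other at this site. The libraries with the upstream peaks were those with the most peaks in all, and the part of this in the result was not tested.

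Cyp4a10, a PPARα-responsive omega-hydroxylase, was marked in every library. Its highest fold reached 10.5 in B6 replicate 1 but 4.42 in B6 replicate 2. The MSM replicates had 3.99 and 6.78, and the hybrids 5.77 (F1 BM) and 4.50 (F1 MB). The B6 and MSM values overlapped. B6 averaged 7.45 ± 4.29 and MSM averaged 5.38 ± 1.97 (SD, n = 2 for either strain), and the gap of 2.07 was below the pooled SD of 3.34. Without B6 replicate 1 the difference was -0.97, so its direction rested on that library, and it was 5.10 without B6 replicate 2, 0.674 without MSM replicate 1 and 3.46 without MSM replicate 2. The parental peaks began 10 to 68 bp after the start and ended 839 to 1027 bp after it, and they formed a region at chr4:115518274-115519291. They covered 1018 and 772 bp in B6 and 834 bp in each MSM library, whereas the F1 MB peak covered 305 bp. F1 BM had another peak at chr4:115519660-115519968, with a fold of 2.47. Relative to its own list, the strongest Cyp4a10 peak was above 90.0% of peaks in B6 replicate 1, 47.4% in B6 replicate 2, 26.0% in MSM replicate 1, 76.8% in MSM replicate 2, 90.4% in F1 BM and 47.9% in F1 MB.

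Cyp4a32 lay at the far end of the cluster and also had a peak in every library. Its highest fold was 7.77 and 5.32 in B6, 5.48 and 3.98 in MSM, with 3.81 for F1 BM and 3.47 for F1 MB. B6 replicate 2 lay below MSM replicate 1, so the strains overlapped. B6 averaged 6.55 ± 1.73 and MSM averaged 4.73 ± 1.06 (SD, n = 2 for either strain), and the gap of 1.82 exceeded the pooled SD of 1.43. The gap was 0.593 without B6 replicate 1, 3.04 without B6 replicate 2 and 1.07 without MSM replicate 2. The covered length was 1001 and 390 bp in B6 and 737 and 836 bp in MSM, so the order of the strain means (695.5 and 786.5 bp) was opposite to that of the folds. The percentage of the list with a lower fold was 76.6 and 69.2 in B6, 60.8 and 24.7 in MSM, with 63.7 for F1 BM and 16.8 for F1 MB. F1 MB had the lowest fold of the 6 libraries here, as it had among the 4 libraries with a peak at Cyp4a14.

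The Cyp4a32 domain was split in some libraries. MSM replicate 2 had 2 peaks, at chr4:115600972-115601387 and chr4:115601439-115601858, and F1 MB had 2, at chr4:115601131-115601377 and chr4:115601506-115601760. Their summits lay 189 and 701 bp after the start in MSM replicate 2 and 216 and 702 bp after it in F1 MB. In MSM replicate 1 the peak crossed the start and began 149 bp before it. B6 replicate 1 and F1 BM, the 2 libraries with an upstream peak at Cyp4a14, also had one upstream of Cyp4a32. It lay at chr4:115600339-115600726 with a fold of 2.38 and a −log10 q of 1.78 in B6 replicate 1, a fold above that of 0.592% of the peaks of that list. In F1 BM it lay at chr4:115600421-115600716 with a fold of 3.32.

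**Figure D2:**
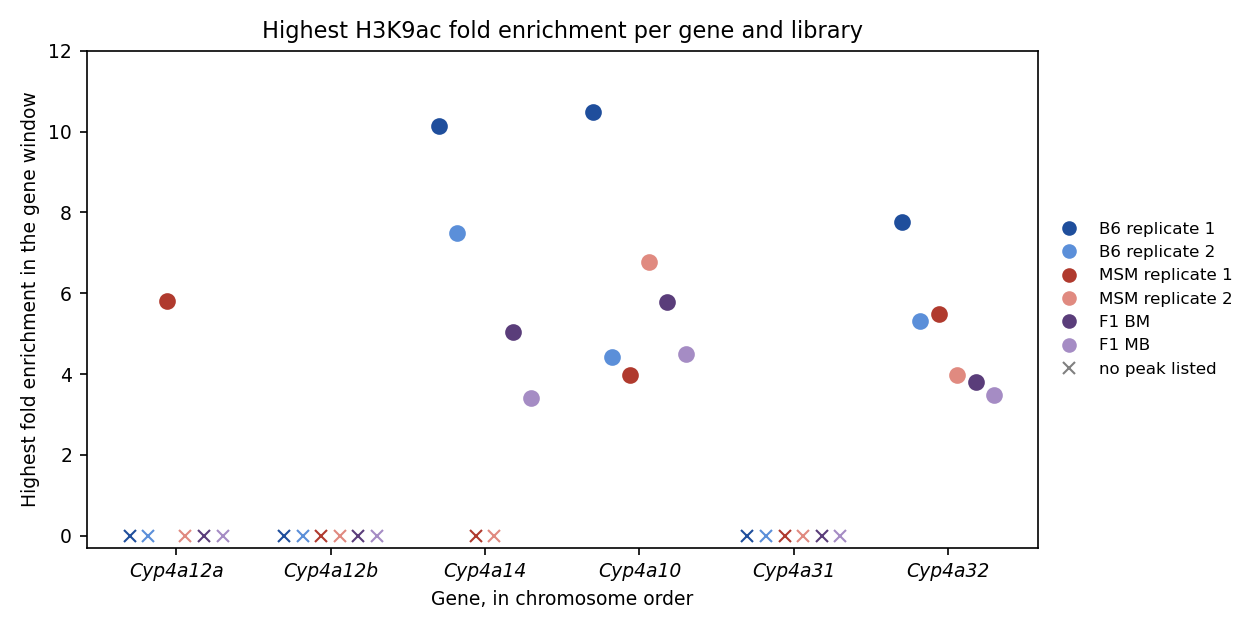
Highest fold enrichment (linear ratio) in the window of each of the 6 genes, in chromosome order, with 1 point per library and a cross at 0 where no peak was listed. B6 replicate 1 has the highest point at Cyp4a14, Cyp4a10 and Cyp4a32, and the B6 and MSM points overlap at Cyp4a10 and Cyp4a32.

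Of the 2 genes with a peak in all 4 parental libraries, neither had both B6 folds above both MSM folds, against 10.8% of 6706 such genes, and neither had the reverse, against 8.59%. B6 replicate 1 had the highest fold at each of Cyp4a14, Cyp4a10 and Cyp4a32, and its list also had the highest median fold. A percentage within a list depends on how many weak peaks that list holds, so it places a peak in its own library only. A fold of 3.81 was above 63.7% of the peaks of F1 BM, and one of 3.98 above 24.7% of those of MSM replicate 2.

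**Figure D3:**
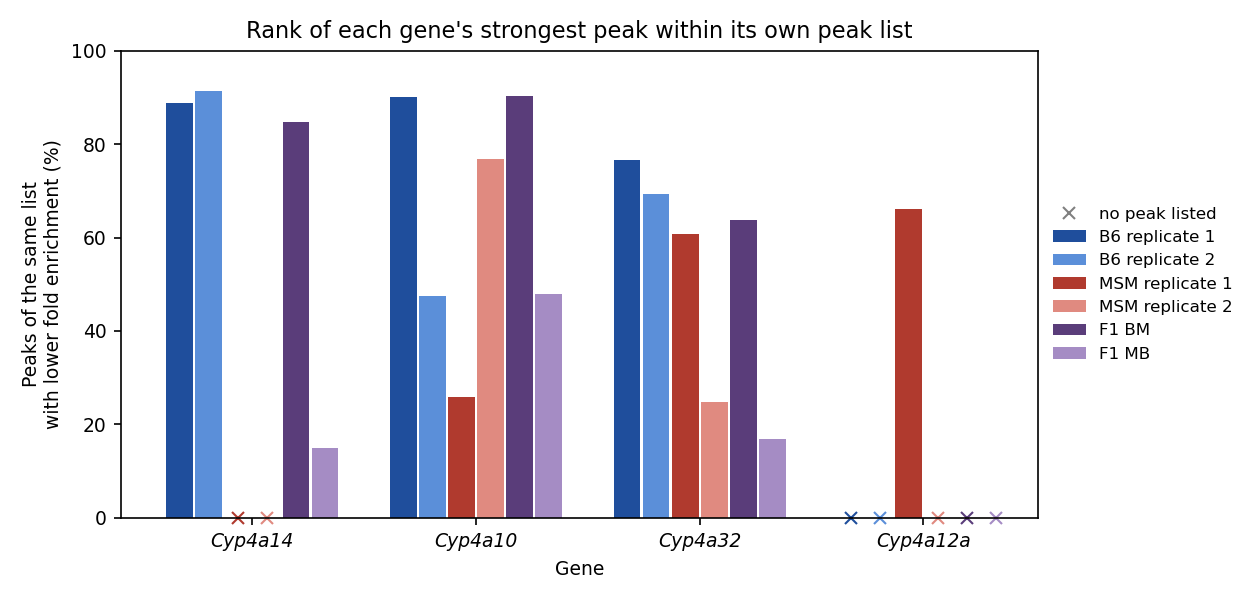
Percentage of peaks in the same list with a lower fold enrichment than the strongest peak of each gene, with 1 bar per library and a cross where no peak was listed. At Cyp4a14 the bars of both B6 libraries and F1 BM lie between 84.7 and 91.5%, and that of F1 MB is at 14.9%.

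The male-biased pair showed a single peak. Cyp4a12a had a peak in MSM replicate 1 at chr4:115299791-115300109, 319 bp wide, in an intron with its summit 916 bp after the start, a fold of 5.81 and a −log10 q of 8.32. No other library had a peak in its 38770-bp window, MSM replicate 2 included, and Cyp4a12b had none in any library. The 319 bp under the peak are repeated without a difference in an intron of Cyp4a12b, at chr4:115412346-115412664. The 120 bases around the summit (chr4:115299902-115300021, plus strand, GRCm38) are shown because the same run stands at chr4:115412457-115412576 in Cyp4a12b. No base is in capitals, since the 2 copies differ at 0 positions.
Cyp4a12a and Cyp4a12b: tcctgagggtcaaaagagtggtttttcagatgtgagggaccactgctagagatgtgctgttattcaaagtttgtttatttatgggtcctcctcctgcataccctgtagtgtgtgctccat
Reads from this stretch cannot be assigned to either gene by their sequence unless the read pair reaches a difference, so the peak is uncertain between the 2 genes.

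The share of sequence found more than once differed between the windows. It was taken as the percentage of 50-bp stretches, the length of a read, that occur again on either strand of the 21 assembled chromosomes of GRCm38. It was 44.7% for Cyp4a12a, 41.8% for Cyp4a12b, 30.4% for Cyp4a32, 16.1% for Cyp4a10, 13.2% for Cyp4a31 and 2.27% for Cyp4a14. Copies inside the 6 windows accounted for 22.8% and 24.4% of the stretches of Cyp4a12a and Cyp4a12b, between 9.70 and 11.7% of those of the Cyp4a10 group, and 0% of those of Cyp4a14. Within 1 kb of the start the share was 59.8% for Cyp4a12a and 60.4% for Cyp4a12b, 16.5% for Cyp4a32, 10.7% for Cyp4a10, 7.63% for Cyp4a31 and 0% for Cyp4a14. The 2 genes with the most repeated sequence at the start had 1 peak in the 6 libraries together. Cyp4a31, with no peak, had a lower share than Cyp4a10 and Cyp4a32, which had one in every library. Of the Cyp4a14 start peak in B6 replicate 1, 1.00% of the 50-bp stretches were repeated, and in B6 replicate 2 none of 1107 were, so this peak lay on sequence that is nearly all single-copy in the reference genome. At Cyp4a10 the main parental peaks had 12.9 to 14.2% of their stretches repeated, and at Cyp4a32 the parental peaks nearest the start had 19.4 to 32.3%. The part of shared sequence in the missing peaks was not tested.

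**Figure D4:**
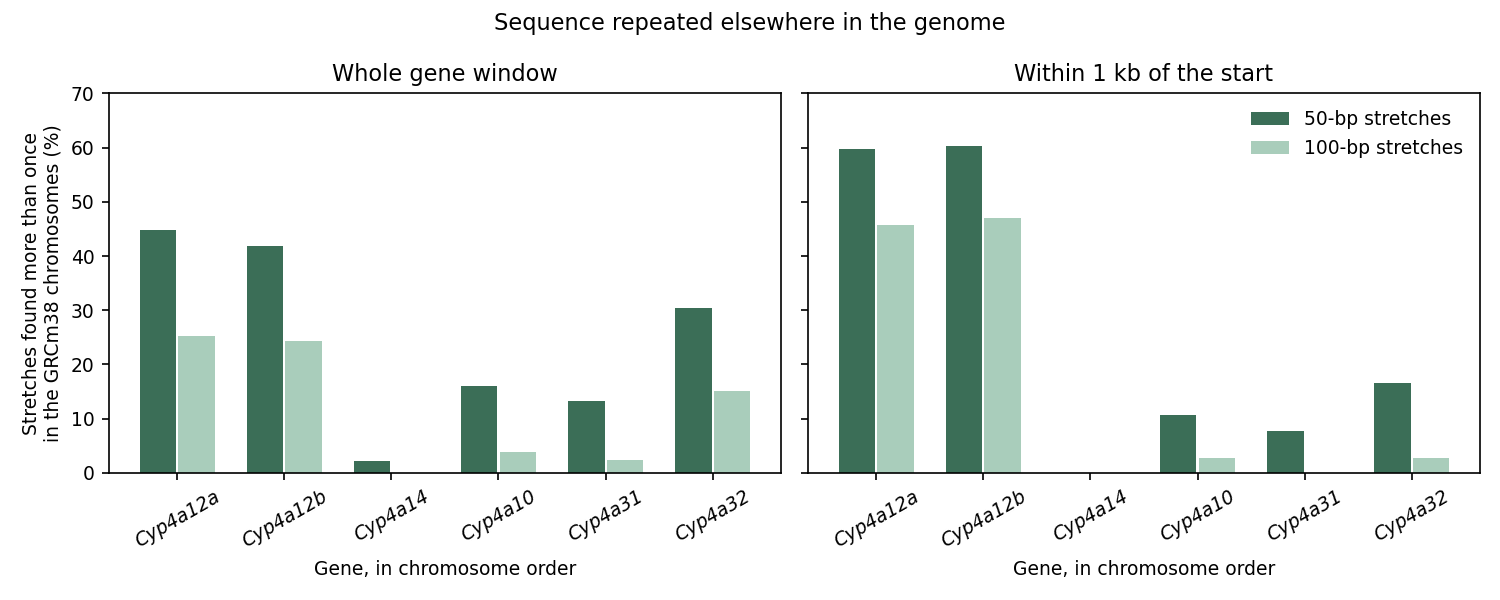
Percentage of 50-bp and 100-bp stretches of each gene window (left) and of the 1 kb either side of its start (right) that occur more than once in the GRCm38 chromosomes. Cyp4a12a and Cyp4a12b have the tallest bars in both panels, and Cyp4a14 has 2.27% in its window and 0% at its start.

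A direct repeat of the nuclear receptor half-site AGGTCA with 1 base between the copies, the type of element bound by PPARα with RXR, was looked for as AGGTCANAGGTCA on either strand with at most 2 mismatches. It was found in 1 of the 25 windows of 300 bp around the Cyp4a summits, that of the downstream F1 BM peak of Cyp4a10. Many of these windows overlap, since several libraries had a peak at the same place, so they are not 25 separate sites. Among all summit windows of the same length the share was between 3.30% in B6 replicate 2 and 3.62% in F1 BM. The best match around the start summits of Cyp4a14 in B6 had 4 mismatches. These letters were sought only in these windows.

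Other genes in or near the cluster were nearly free of peaks. Cyp4b1 and Cyp4x1 lay outside the span given above. Cyp4b1 had its peak in B6 replicate 1 alone. Cyp4x1, Cyp4a30b and the pseudogenes Cyp4a30-ps, Cyp4b1-ps1 and Cyp4b1-ps2 had none in any library. Of 14 other Cyp4 genes, 4 had a peak within 1 kb of the start in all 6 libraries, against 23.6% of all protein-coding genes, and 8 had none in any, against 54.2%. A strain-specific region lay there in 0 of the 14, against 1.69% (B6) and 0.516% (MSM) of all genes, so few were to be found in a list of this size. The 4 marked throughout were Cyp4f13, Cyp4f15 and Cyp4f17, of a subfamily known for the metabolism of leukotrienes and long-chain fatty acids, and Cyp4v3, a fatty acid hydroxylase. Cyp4f15 had folds of 13.5 and 8.38 in B6, 6.25 and 7.53 in MSM, with 7.22 for F1 BM and 6.88 for F1 MB.

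A list of 39 PPARα and fatty acid oxidation genes gave the setting of Cyp4a14 among the genes of its pathway. A peak at the start was found for 34 and 30 of them in B6, 30 and 30 in MSM, and 30 (F1 BM) or 29 (F1 MB) in the hybrids, and for 28 in all 6 libraries, against 23.6% of all protein-coding genes. A start peak was listed for 44.2 and 27.9% of all protein-coding genes in B6, for 35.5 and 36.2% in MSM, and for 35.3 and 31.7% in F1 BM and F1 MB. The receptor gene Ppara had folds of 17.7 and 10.1 in B6 and 13.6 and 13.4 in MSM, and its partner Rxra 16.9 and 8.75 in B6 and 12.1 and 11.6 in MSM. In both genes the values of the strains overlapped. The list was written with earlier results of these data known, so its count of strain-specific regions is a description. A B6-specific region at the start was found for 2 of the 39, against 1.69% of all genes. They were at Vnn1, a pantetheinase, with folds of 7.76 and 3.91 in B6 and no peak in MSM or the hybrids, and at Abcd2, a peroxisomal fatty acyl-CoA transporter, with 7.87 and 4.34 in B6, 3.37 in F1 BM and none in MSM or F1 MB.

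Since Cyp4a10 and Cyp4a14 are female-biased and the Cyp4a12 genes male-biased in mouse liver, other genes of these kinds were counted. Without the Cyp4a genes, 13 and 6 of 15 female-biased genes had a peak at the start in B6 replicates 1 and 2, 6 and 5 in MSM, and 8 (F1 BM) or 4 (F1 MB) in the hybrids. Of 10 male-biased genes, 4 and 3 had a peak in B6, 5 and 5 in MSM, and 7 (F1 BM) or 5 (F1 MB) in the hybrids. These counts stand beside the shares of all protein-coding genes given above. Both lists were written with earlier results of these data known, so counts of strain-specific regions in them are descriptions. B6-specific regions lay at the starts of 4 of the 15 female-biased genes, against 1.69% of all protein-coding genes. These were the steroid and xenobiotic P450 genes Cyp2b9 and Cyp2b13, the steroid sulfotransferase gene Sult2a1 and Cyp17a1, an enzyme of steroid synthesis. Cyp2b9 and Cyp2b13 belong to the same gene family. Cyp2b9 had folds of 8.41 and 8.37 in B6, 6.71 in F1 BM and no peak in MSM or F1 MB. An MSM-specific region lay at the start of 1 gene of either list, against 0.516% of all protein-coding genes. They were Hao2, a hydroxy acid oxidase gene of the female-biased list, and the complement gene C6 of the male-biased list, the latter with folds of 8.47 and 6.53 in MSM, 6.91 in F1 BM, 6.02 in F1 MB and no peak in B6. Of the male-biased genes, 0 had a B6-specific region. The labels give no sex, and the part of sex in these counts was not tested. Beside them stand the peak at Xist in every library, the lack of one at the 4 Y-linked genes, and the Y chromosome peaks that MSM (8 and 4), F1 BM (9) and F1 MB (1) had and B6 (0 and 0) had not.

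**Figure D5:**
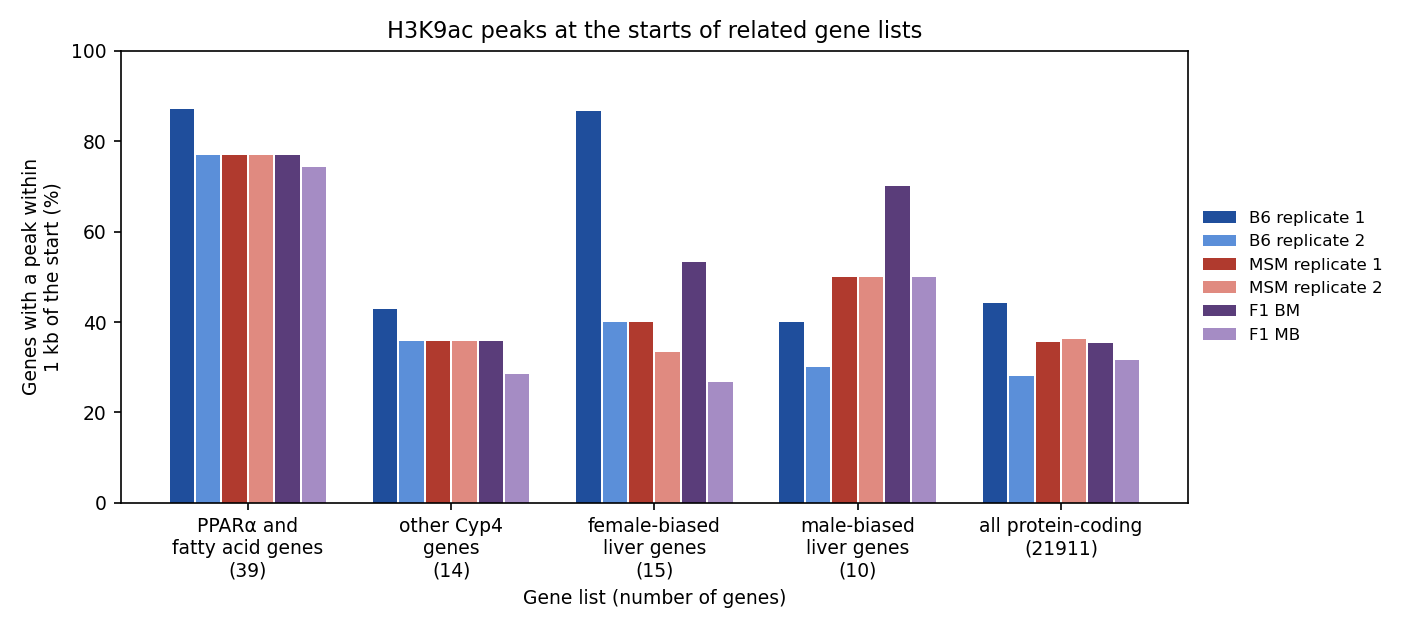
Percentage of genes with a peak within 1 kb of the start, per library, for 39 PPARα and fatty acid genes, 14 other Cyp4 genes, 15 female-biased and 10 male-biased liver genes (Cyp4a genes left out of the last 2) and all 21911 protein-coding genes. B6 replicate 1 stands above the other 5 libraries among the female-biased genes, with 13 of 15 genes. It also stands above them among the PPARα and fatty acid genes, the other Cyp4 genes and all protein-coding genes. Among the male-biased genes F1 BM stands highest, with 7 of 10 genes.

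The genes most like Cyp4a14 were sought by the rank of their start peak in each of the 6 lists, with 0 for no peak, as the Euclidean distance over the 6 libraries among 10022 other genes with a peak at the start in any library, a measure that also moves with the number of weak peaks in each list. The nearest were Prrt1 at 20.0 and Cyp2b9 at 20.0 percentage points. The next were Bysl, Med20 and Gm20517 at 23.4, which share 1 start region. Unlike Cyp4a14, this region had a peak in both MSM libraries, above 2.24 and 14.5% of the peaks in replicates 1 and 2. Cyp2b9 lay above 80.8 and 95.2% of the peaks in the B6 lists and above 94.6% in F1 BM, and was absent from MSM and F1 MB. Prrt1 differed from Cyp4a14 in having other peaks in its window in both MSM libraries.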

How the data were processed

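Peak lists of 6 H3K9ac libraries were analysed. The authors fixed liver, precipitated chromatin with an anti-H3K9ac antibody and sequenced 50-bp read pairs. Per the submitters' processing notes, Trim Galore, HISAT2, SAMtools and MACS2 were used with mm10 (GRCm38), whereas the study's methods name Bowtie 2 as the aligner, so the aligner is not settled here. All libraries were mapped to the B6 sequence, so MSM reads could be lost at variants, and reads of duplicated genes could be misplaced; neither was tested. Lists were called per library, and the threshold and control are not given in the sources used here. The deposited lists gave a fold enrichment (a linear ratio), the −log10 of p and q, with the lowest −log10 q between 1.30 and 1.35, and a score, which was not used further.

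Overlaps (at least 1 bp) were computed with Python 3.11.15 and numpy 2.4.6, coding identity with edlib 1.3.9.post1 and repeated stretches with numba 0.67.0. The functions were tested on simulated data. Figures were drawn with matplotlib 3.10.9. No test was made: the strain contrast chose the genes, an exact permutation test of 2 against 2 libraries cannot reach a p-value of 0.05, and differences were set against the pooled SD. The rule named all 6 genes, their neighbours, list genes with a strain-specific region at the start and the 5 genes most like Cyp4a14; Ppara, Rxra, the Cyp4f genes, Cyp4v3 and the marker genes named were added as examples after their values were seen. Some list results are not reported here. The members and lists were chosen with earlier results of these data known. Alternatives were a −log10 q of at least 5, lists of equal number or equal covered length, other windows, merging within 500 bp, 100-bp stretches and leaving out each parental library.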

Additional observations from a re-analysis of the deposited data

How the results depend on the processing

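Cyp4a14 kept its B6-specific region, and no Cyp4a gene had an MSM-specific one, under the filter on −log10 q, equal lists, the other windows and merging within 500 bp. Leaving out each parental library gave 1 to 2 genes with a B6-specific region and 0 to 1 with an MSM-specific one. Cyp4a32 was added without B6 replicate 2 and Cyp4a12a without MSM replicate 2. Without Cyp4a14, an alternative chosen after seeing the data, B6 minus MSM reversed to -189.5 bp of covered length and to -0.5 peaks. The difference in peak number was 0 within the gene body alone and 0 to 2 when each parental library was left out. F1 MB had a peak in 1 Cyp4a gene, not 3, with a −log10 q of at least 5 and also with lists of equal covered length. The share of all genes with a B6-specific region ranged from 1.60% (equal covered length) to 22.0% (without B6 replicate 2), and with an MSM-specific one from 0.516% (within 1 kb of the start) to 16.5% (without B6 replicate 1). With 100-bp stretches the repeated share was 3.87% for Cyp4a10, 25.3% for Cyp4a12a, 24.3% for Cyp4a12b, 0% for Cyp4a14, 2.34% for Cyp4a31 and 15.1% for Cyp4a32, lower since longer runs must match. No paired analysis was possible because no test was made and the replicate numbers name separate mice of different strains. The values were not corrected for sequencing depth, so a missing peak is no measure of absent acetylation.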
